A study of Mus musculus with 6 samples.

Results

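The force of the heartbeat is made by cardiac myosin, a motor built from heavy chains and a pair of light chain types. The 9 genes described here encode that motor and its closest partners: the heavy chains Myh6, Myh7 and Myh7b, the light chains Myl2, Myl3, Myl4 and Myl7, cardiac myosin-binding protein C (Mybpc3) and cardiac myosin light chain kinase (Mylk3). They were taken by gene symbol from a table of 21776 genes, and all 9 were present and above the filter on low values. Total RNA of mouse hearts was sequenced from 3 Trdn-as KO and 3 WT animals. Trdn-as is transcribed antisense to Trdn without encoding a protein, and Trdn encodes triadin, part of the calcium-release complex of the sarcoplasmic reticulum. KO mice carried a polyadenylation signal in exon 1 of Trdn-as, placed there with Cas9 in embryonic stem cells, and chimeras were crossed back to C57BL/6. The insertion was therefore present in the whole animal and not restricted to cardiomyocytes, the hearts were labelled adult, and the exact age, the sex and the relatedness of the sequenced hearts are not given in the sources used here. WT hearts were labelled only as WT.

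In the adult mouse ventricle the alpha heavy chain (Myh6), a fast ATPase, predominates, whereas the slower beta heavy chain (Myh7) dominates before birth and returns under load or loss of thyroid hormone. Each heavy chain binds an essential and a regulatory light chain, Myl3 and Myl2 in the ventricle and Myl4 and Myl7 in the atrium. Mylk3 phosphorylates the regulatory light chain, and Mybpc3 tethers myosin heads along the thick filament. Ratios of beta to alpha heavy chain and of atrial to ventricular light chains are therefore widely used readouts of the state of the heart muscle.

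The targeted gene separated the groups: the value of Trdn-as was 1, 0 and 1 for KO and 690, 773 and 688 for WT, given here and throughout in the order of hearts 1 to 3. These values are normalised read counts, that is the number of reads of a gene divided by the size factor of its library and rounded to a whole number. Trdn was at 2489, 2381 and 2551 in KO and at 1541, 1541 and 1516 in WT hearts. Libraries held 2.59 to 3.62 M estimated counted reads, with size factors of 1.149, 1.057 and 1.005 in KO and of 0.795, 0.955 and 1.103 in WT. Limma on log2(value + 1), with Benjamini-Hochberg adjustment over the 13753 genes tested, placed 4 genes below an adjusted p of 0.05. The ventricular markers Actc1, Tnnt2, Tnni3, Ryr2, Pln and Irx4 were all present, and each of the 5 skeletal muscle markers in the table stayed at or below 10.

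None of the 9 myosin genes differed between KO and WT hearts at an adjusted p of 0.05 (limma, adjusted p between 0.851 and 0.974), where the background was 0.0291% of all genes tested. At an unadjusted p of 0.05, Myh6, Myl3 and Mybpc3 were lower in KO hearts, that is 3 of 9 genes, against a background of 2.80% of all genes in that direction and 5.74% in either direction. That number was 0 with a correction for read density, without the variance trend, without KO heart 2 or without WT heart 1, and 6 without WT heart 3. KO and WT values overlapped for all 9 genes, so 0 of 9 were separated, against a background of 9.07%. The fitted difference was negative for 7 genes and positive for Myl4 and Myl7, with a median of -0.15 on the log2 scale beside 0.00 for all genes tested. Of all genes tested 49.4% had a negative difference. In these bulk samples, fewer cells of a type and less RNA per cell cannot be told apart. The plot of the 9 genes by heart shows what these counts rest on: a narrow spread of Myh6, Myl2, Myl3, Mybpc3 and Mylk3 and a wide one of Myh7, Myl4 and Myl7. Duplicate removal limits the reads kept for the densest of these genes, as described below, and its part in the narrow spread was not tested.

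**Figure D1:**
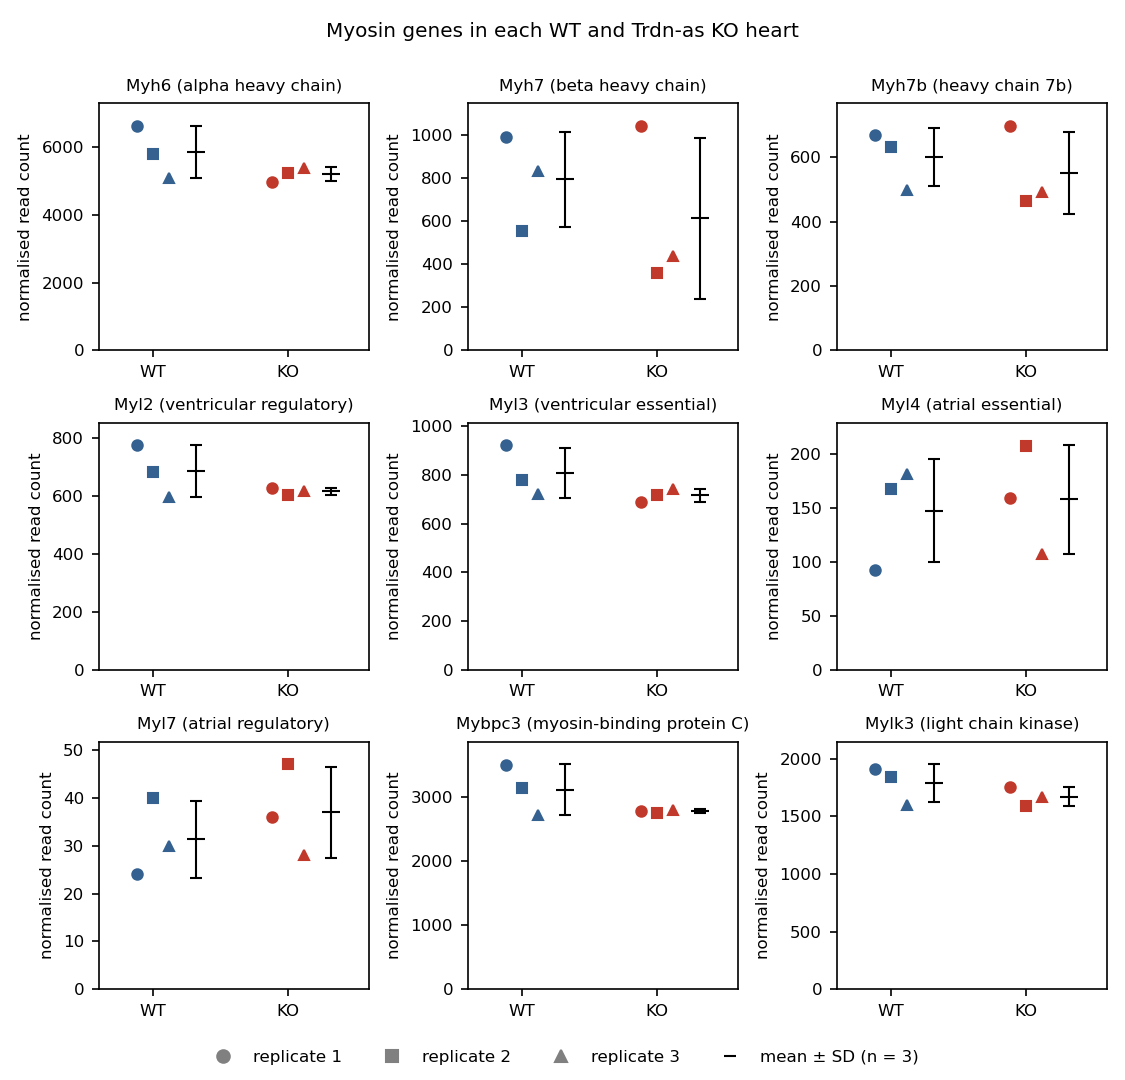
Normalised read count (vertical axis, from 0) of each of the 9 myosin genes in 3 WT (blue) and 3 KO (red) hearts, with replicate numbers as symbols and the mean ± SD as bars. KO and WT points overlap in every panel, and for Myh7 KO heart 1 at 1043 stands far above KO hearts 2 and 3 at 359 and 439.

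Ventricular light chains and the alpha heavy chain led the members once values were divided by the length of the principal transcript. Mean normalised read counts per kb were 984 for Myl2, 904 for Myh6, 813 for Myl3, 707 for Mybpc3 and 468 for Mylk3. The remaining members lay well below, at 174 for Myl4, 115 for Myh7, 93.5 for Myh7b and 57.9 for Myl7. On full transcript lengths, Myl2 exceeded Myh6, Myh6 exceeded Myl3 and Myl3 exceeded Mybpc3 in 6 of 6 hearts. The ranges of these neighbours over the hearts overlapped. The Myh6 length includes stretches shared with Myh7, whose reads were removed as multi-mapping. Per start position not shared with another member, Myh6 had more estimated reads than Myl2 in KO heart 2 (1.09 against 1.08) and 1.06, as Myl2, in KO heart 3. The ranges of Mybpc3 (651 to 839 per kb) and Mylk3 (430 to 518 per kb) did not overlap, nor did those of Mylk3 and Myl4 (106 to 237 per kb). Myh7 (58.5 to 170 per kb) exceeded Myh7b (75.5 to 113 per kb) in only 3 of 6 hearts on full transcript lengths. Per start position not shared with another member, Myh7 was below Myh7b only in KO heart 2 (0.0741 against 0.0807 estimated reads). The order of these neighbours thus depended on the length used.

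Myh6, Myl2, Myl3 and Mybpc3 had 0.679 to 1.23 estimated reads for each position at which a read can start. PCR duplicates were removed from single-end reads that carried no molecular identifiers, a step that keeps at most 1 read for each start position and strand. Myh6 had 5100 start positions for 75-base reads on its principal transcript that were not shared with another member, and an estimated 5282 to 5728 reads per library, or 1.04 to 1.12 reads per start position. The corresponding range was 1.05 to 1.23 for Myl2, 0.850 to 0.922 for Myl3, 0.679 to 0.781 for Mybpc3 and 0.420 to 0.557 for Mylk3. Exons outside the principal transcript were counted as well, which can add reads. What brought values above 1 was not tested. Myl4, Myh7, Myh7b and Myl7 stayed between 0.0370 and 0.273 reads per start position. Among 11959 tested genes with a principal transcript, Myl2, Myh6, Myl3 and Mybpc3 ranked 9, 12, 17 and 28 in reads per base. The part of duplicate removal in the order of these 4 genes and in their ratios to the sparse members was not tested. Nor was its part in their narrow spread and in their KO against WT differences. A limit on kept reads can narrow such differences, so equal mRNA levels cannot be read from the narrow spread.

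**Figure D2:**
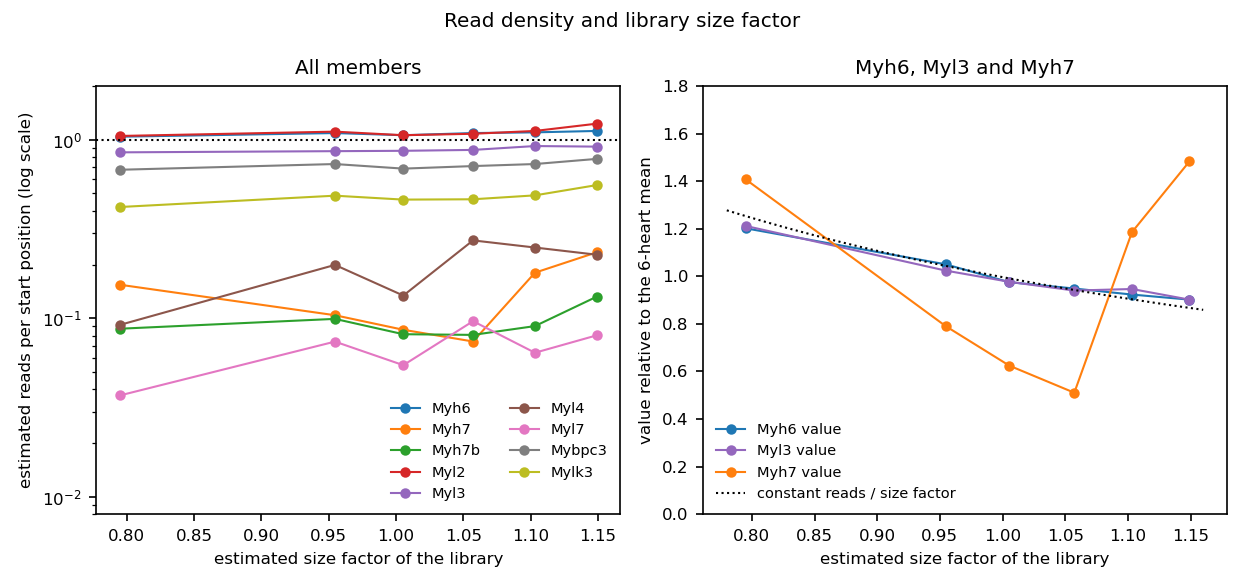
Left, estimated reads per unshared 75-base start position (log scale) against the size factor of each of the 6 libraries for all 9 members, with a dotted line at 1 read per position. Right, values of Myh6, Myl3 and Myh7 relative to their 6-heart mean, with the dotted curve that a constant number of reads would give: Myh6 and Myl3 lie along it and Myh7 does not.

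Myh6 (ENSMUSG00000040752, GRCm38 chr14:54941981-54966641, minus strand) encodes the alpha heavy chain. Its values were 4985, 5243 and 5390 in KO and 6643, 5806 and 5103 in WT hearts. The lowest WT heart lay within the KO range, and only WT hearts 1 and 2 exceeded all KO hearts. The means were 5206 ± 205 in KO and 5851 ± 771 in WT (SD, n = 3 each), a log2 fold change of -0.16 ± 0.07 (SE, limma, adjusted p = 0.851). Over the libraries the estimated reads of Myh6 ranged 1.08-fold, its normalised read count 1.33-fold and the size factor 1.45-fold. The highest value came from WT heart 1, which had the lowest size factor, and the lowest value from KO heart 1, which had the highest. Without these 2 libraries the mean size factor was 1.03 in both groups and the log2 fold change of Myh6 was -0.03. It was -0.07 without WT heart 1 alone and -0.26 without WT heart 3 (limma, adjusted p = 0.110).

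Mybpc3, Myl3 and Myl2 were also highest in WT heart 1 and varied more among WT than among KO hearts. Mybpc3 (ENSMUSG00000002100, chr2:91118144-91136516, plus strand) was at 2781, 2752 and 2801 in KO and at 3494, 3131 and 2709 in WT hearts. The coefficient of variation (CV) was 0.887% in KO and 12.6% in WT hearts. KO against WT, its log2 fold change was -0.16 ± 0.07 (SE, limma, adjusted p = 0.851) and -0.07 without KO heart 1 and WT heart 1. It was -0.25 without WT heart 3 (limma, adjusted p = 0.10), which had the lowest value. Myl3 (ENSMUSG00000059741, chr9:110763646-110769798, plus strand), the ventricular essential light chain, was at 687, 716 and 744 in KO and at 923, 780 and 721 in WT hearts. WT heart 3 fell inside the KO range. As a log2 fold change this was -0.17 ± 0.08 (SE, limma, adjusted p = 0.851) and -0.04 without the same pair of libraries, but -0.25 without WT heart 3. Myl2 (ENSMUSG00000013936, chr5:122100951-122113472, plus strand), the ventricular regulatory light chain, was at 628, 603 and 619 in KO and at 777, 685 and 598 in WT hearts. Here the lowest of all 6 values was that of WT heart 3. Fitted over all hearts, the log2 fold change was -0.15 ± 0.08 (SE, limma, adjusted p = 0.851) and -0.07 without the pair, but -0.24 without WT heart 3. Without WT heart 1 alone the value was -0.07 for Mybpc3 and Myl3 and -0.05 for Myl2.

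Genes of high read density, these 4 included, mostly had differences of the same sign. Of 94 tested genes above 0.5 reads per base of the principal transcript, 92 had a negative difference, with a median log2 fold change of -0.11 that became -0.05 without KO heart 1 and WT heart 1. Among the 9291 genes at or below 0.1 reads per base the median was 0.02. After a loess correction of each library for read density, the log2 fold change was -0.02 for Myh6, -0.03 for Mybpc3, -0.06 for Myl2 and -0.08 for Myl3. How much of the lower KO values of these genes goes with library depth was not tested beyond these values.

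Mylk3 (ENSMUSG00000031698, chr8:85324303-85380978, minus strand), the kinase of the regulatory light chain, varied least of the 9 genes over all hearts, 1.20-fold from lowest to highest. It was at 1755, 1591 and 1663 in KO and at 1913, 1845 and 1602 in WT hearts. WT hearts 1 and 2 were above every KO heart and WT heart 3 was near the lowest. Its log2 fold change was -0.09 ± 0.06 (SE, limma, adjusted p = 0.894), and 0.00 after the density correction. It was -0.17 without WT heart 3 and -0.04 without WT heart 1.

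Myh7 (ENSMUSG00000053093, chr14:54970688-54994634, minus strand), the beta heavy chain, varied most. Its values were 1043, 359 and 439 in KO and 990, 556 and 834 in WT hearts. KO heart 1 had the highest value of all 6 hearts and 2.61 times the mean of KO hearts 2 and 3, which were both below every WT heart. The KO mean was 614 ± 374 and the WT mean 793 ± 220 (SD, n = 3 each), with CVs of 60.9% and 27.7%. Counting error alone was 2.89% to 5.13% for the 380 to 1198 estimated reads of Myh7. Its residual SD was 0.65 on the log2 scale, where the median of all genes tested was 0.14 and 134 of 13753 genes had a larger one.

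The KO against WT difference of Myh7 depended on which hearts were included. Over all 6 hearts the log2 fold change was -0.49 ± 0.25 (SE, limma, adjusted p = 0.851). Without KO heart 1 it was -0.96 ± 0.14 (SE, limma), and the adjusted p of 0.00436 made Myh7 1 of 32 genes called, or 0.232% of the genes then tested. That SE and p rest mostly on the variance of other genes, with 18 prior against 3 residual degrees of freedom. Over all 6 hearts the SE was 0.42 without the variance trend, beside 0.25 with it. Without both KO heart 1 and WT heart 1 the log2 fold change was -0.78 with an adjusted p of 0.263 (limma). It was -0.73 without WT heart 2, -0.33 without KO heart 3, -0.31 without WT heart 1 and -0.19 without KO heart 2, none of them past an adjusted p of 0.05 (limma). Over the 16 settings run it stayed negative, between -0.96 and -0.19, and the adjusted p ranged from 0.00436 to 0.999. No label gives a reason to leave out KO heart 1, and it is singled out here after its value was seen, among fits that left out each heart in turn.

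**Figure D3:**
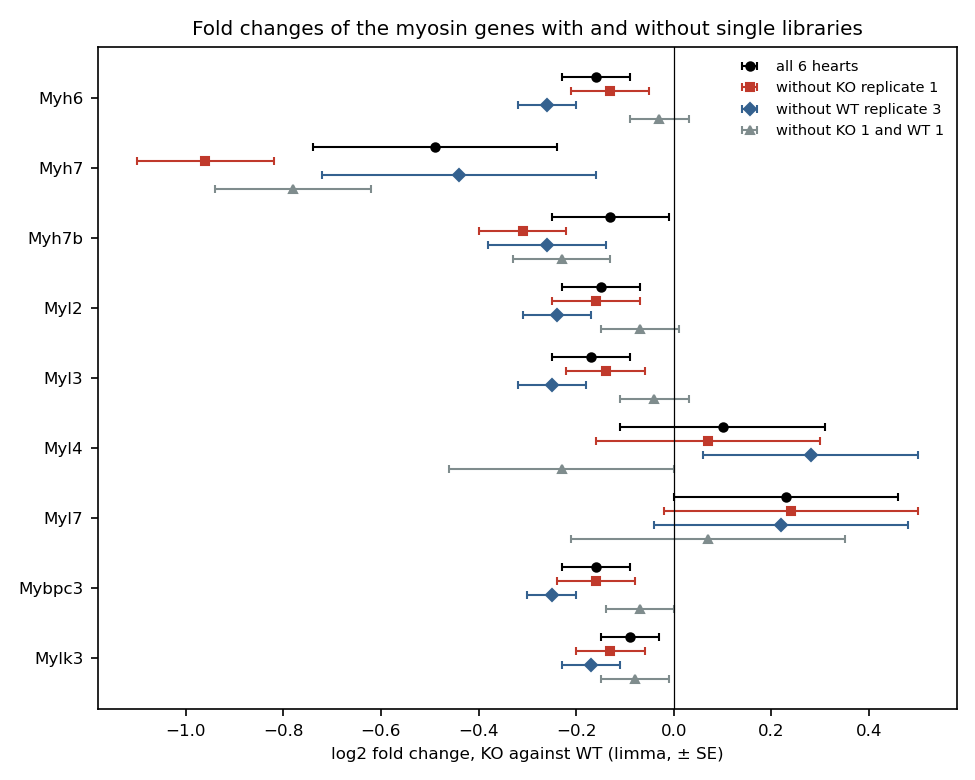
Log2 fold change of KO against WT hearts (horizontal axis, limma, bars ± SE) for the 9 genes with all 6 hearts (black), without KO heart 1 (red), without WT heart 3 (blue) and without KO heart 1 and WT heart 1 (grey). Myh7 moves from -0.49 to -0.96 without KO heart 1, whereas Myh6, Myl3, Myl2 and Mybpc3 move toward 0 without both hearts and away from it without WT heart 3.

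Myh7b (ENSMUSG00000074652, chr2:155611212-155634307, plus strand) encodes a further sarcomeric heavy chain and had values of 698, 465 and 493 in KO and of 669, 633 and 499 in WT hearts. As for Myh7, KO heart 1 was the highest of all and KO hearts 2 and 3 were below every WT heart. KO heart 1 had 1.46 times the mean of the other two, a smaller excess than for Myh7. KO against WT hearts gave a log2 fold change of -0.13 ± 0.12 (SE, limma, adjusted p = 0.921), and -0.31 without KO heart 1 (limma, adjusted p = 0.264). It was -0.02 without KO heart 2, -0.05 without WT heart 1, -0.06 without KO heart 3 and -0.26 without WT heart 3.

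The Myh7 to Myh6 ratio, taken on values per kb, was 20.8%, 6.82% and 8.12% in KO and 14.8%, 9.54% and 16.3% in WT hearts. KO heart 1 was the highest and KO heart 2 the lowest, so that the KO hearts spanned the WT range on both sides. The means were 11.9% ± 7.75 in KO and 13.6% ± 3.55 in WT (SD, n = 3 each), and the log2 ratio differed by -0.33 (exact two-sided permutation test, p = 0.700, adjusted over 4 ratios 0.933). This difference was -0.83 without KO heart 1 and -0.02 without KO heart 2. With 3 hearts against 3 the smallest p this test can give is 0.10. The Myh7b to Myh6 ratio was 13.9%, 8.80% and 9.07% in KO and 9.99%, 10.8% and 9.70% in WT hearts. The WT hearts lay close together, at 10.2% ± 0.578, with KO heart 1 above and KO hearts 2 and 3 below all of them. The mean KO ratio was 10.6% ± 2.86, and the log2 difference was 0.03 (exact two-sided permutation test, p = 1.00). That difference turned to -0.18 without KO heart 1, to -0.01 without WT heart 3 and to -0.09 after the density correction.

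As shares of the summed heavy chain values per kb, Myh6 made up 74.2%, 86.5% and 85.3% in KO and 80.1%, 83.1% and 79.4% in WT hearts. Myh7 made up 15.5%, 5.90% and 6.93% in KO and 11.9%, 7.93% and 12.9% in WT hearts. The alpha heavy chain was thus the main heavy chain mRNA in each of the 6 hearts. Myh6 had at least 1.04 reads per start position and Myh7 and Myh7b at most 0.234, and the part of duplicate removal in the ratios was not tested. These shares and the ratios above use full transcript lengths. Of the 75-base windows, 15.5% are shared between Myh6 and Myh7, and 0 of Myh7b are shared. Myh7b is therefore higher relative to Myh6 on these lengths than per unshared start position (0.132 against 1.12 reads in KO heart 1).

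**Figure D4:**
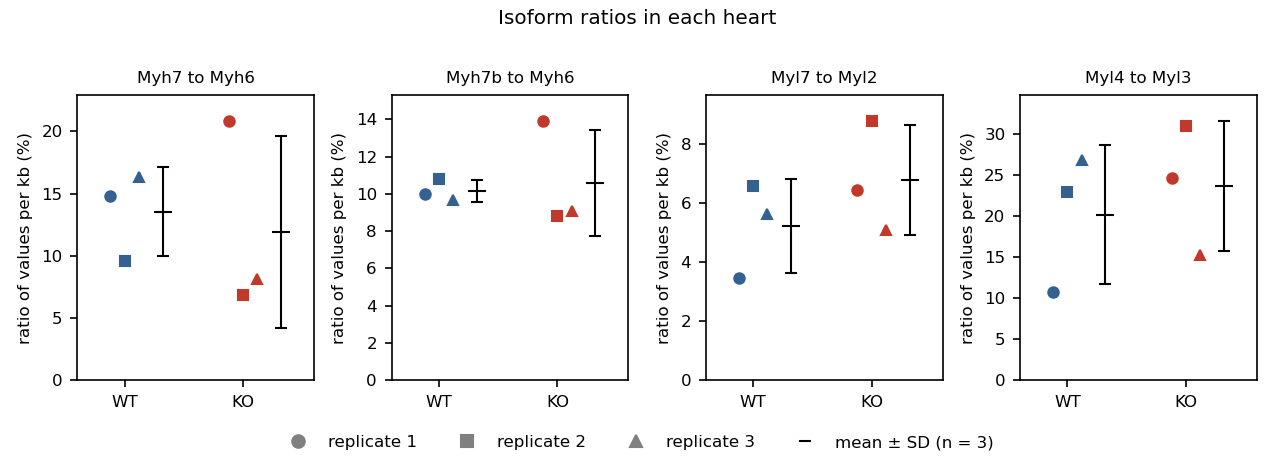
Ratios of normalised read counts per kb in percent (vertical axes, from 0) in 3 WT (blue) and 3 KO (red) hearts, with the mean ± SD. The Myh7 to Myh6 ratio spans 6.82% to 20.8% within KO hearts, and no ratio separates the groups.

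Myh6 and Myh7 lie in tandem on chromosome 14, with 4046 bases between them, and their coding sequences are alike. Of the 6039 windows of 75 bases in the principal Myh6 transcript, 939 (15.5%) also occur in that of Myh7 and none in the other 7 members. These windows form 11 stretches, and full-length reads that fall wholly inside a stretch map to both genes and were removed as multi-mapping. The longest is 245 bases long, from base 4482 to base 4726 of the Myh6 and from base 4458 to base 4702 of the Myh7 transcript. Its first 75 bases, a read length, are shown because a read of exactly this sequence cannot be given to either heavy chain (GENCODE transcripts, GRCm38).
Myh6 bases 4482 to 4556 and Myh7 bases 4458 to 4532: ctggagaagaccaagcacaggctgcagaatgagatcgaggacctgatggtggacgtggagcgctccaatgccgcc

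The starts of the tandem genes Myh6 and Myh7 are shown as 250 bases upstream of the RefSeq transcription start (GRCm38.p6, read on the minus strand, for Myh7 the more upstream of the listed starts), with GGAATG, the core of the site bound by TEAD factors, in capitals. Both upstream sequences hold 1 copy, 206 bases before the start in Myh6 and 201 bases before it in Myh7, and 12.6% of 32851 promoters of this length hold the motif on either strand. The window of the other listed Myh7 start holds 0 copies. A copy of these letters is a description of the sequence only. The TATA box letters TATAAA, held by 12.4% of promoters, were in neither window on either strand. The same was true of the GATA core AGATAA (9.99% of promoters). The nuclear receptor core AGGTCA (14.0% of promoters) was also in neither window. The Myh7b window, not shown, holds 0 copies of GGAATG and of TATAAA and 1 copy each of AGATAA and AGGTCA.
Myh6 chr14:54966608-54966857: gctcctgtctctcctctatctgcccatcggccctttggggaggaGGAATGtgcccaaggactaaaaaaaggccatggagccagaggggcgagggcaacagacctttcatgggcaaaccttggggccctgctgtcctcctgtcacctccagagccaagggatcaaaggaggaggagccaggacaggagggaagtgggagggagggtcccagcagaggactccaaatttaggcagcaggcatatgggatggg
Myh7 chr14:54994627-54994876: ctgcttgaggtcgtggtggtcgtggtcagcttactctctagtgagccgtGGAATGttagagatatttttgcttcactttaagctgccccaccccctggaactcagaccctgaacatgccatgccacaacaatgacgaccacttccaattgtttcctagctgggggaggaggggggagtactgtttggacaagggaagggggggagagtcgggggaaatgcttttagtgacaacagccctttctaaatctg

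Each heavy chain gene also hosts a miRNA in an intron, a family known to regulate the choice of heavy chain in the mouse heart. The mature sequences (RefSeq, GRCm38.p6) are shown with the seed, bases 2 to 8, in capitals.
miR-208a-3p, Myh6 intron 29: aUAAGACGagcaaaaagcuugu
miR-208b-3p, Myh7 intron 31: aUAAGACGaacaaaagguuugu
miR-499-5p, Myh7b intron 19: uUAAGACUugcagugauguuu

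The pair miR-208a-3p and miR-208b-3p shares the seed UAAGACG and differs at G10A, A16G and C18U, counted from the 5′ end with the base of miR-208a-3p first, and the seed of miR-499-5p is UAAGACU. Values are given here for the miR-208a hairpin only (chr14:54949060-54949142, minus strand), at 27, 24 and 18 in KO and at 21, 20 and 19 in WT hearts. The groups overlapped, and the log2 fold change was 0.18 ± 0.24 (SE, limma, adjusted p = 0.961), which ranged from 0.05 to 0.33 when each heart was left out in turn. In total RNA these reads and those of unspliced Myh6 cannot be told apart. The miR-208b and miR-499 hairpins are not analysed here.

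Mhrt, a long non-coding RNA transcribed against Myh7 (chr14:54968678-54974349, plus strand), overlaps the span of Myh7 over 3662 bases. Reads were counted by strand, so that its values are separate from those of Myh7. They were 370, 371 and 385 in KO and 439, 429 and 394 in WT hearts. Every WT heart was above every KO heart, as groups were separated for 9.07% of all genes tested, and the log2 fold change was -0.16 ± 0.07 (SE, limma, adjusted p = 0.851). After the density correction it was -0.08. Mhrt did not share the excess of Myh7 in KO heart 1.

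The atrial light chains had the opposite sign and a wide spread. Myl4 (ENSMUSG00000061086, chr11:104550663-104587215, plus strand), the atrial essential light chain, was at 159, 208 and 107 in KO and at 93, 168 and 182 in WT hearts. The lowest and the highest values came from WT heart 1 and KO heart 2, and the groups overlapped broadly. KO against WT, its log2 fold change was 0.10 ± 0.21 (SE, limma, adjusted p = 0.974), which turned to -0.20 without WT heart 1 and to -0.12 without KO heart 2. Myl7 (ENSMUSG00000020469, chr11:5896637-5898782, minus strand), the atrial regulatory light chain, was at 36, 47 and 28 in KO and at 24, 40 and 30 in WT hearts. Again WT heart 1 was lowest and KO heart 2 highest. As a log2 fold change this was 0.23 ± 0.23 (SE, limma, adjusted p = 0.938). It was 0.05 without KO heart 2, 0.06 without WT heart 1, and 0.41 to 0.42 without KO heart 3 or WT heart 2. For the 19 to 50 estimated reads of Myl7, counting error alone was 14.2% to 22.9%, beside a CV of 25.8% in each group. For the 74 to 220 estimated reads of Myl4 it was 6.74% to 11.6%. The part of counting error in the spread of Myl7 was not tested.

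Against their ventricular counterparts the atrial light chains varied over the hearts in the same manner. The Myl7 to Myl2 ratio per kb was 6.43%, 8.75% and 5.08% in KO and 3.47%, 6.55% and 5.63% in WT hearts, with a log2 difference of 0.38 (exact two-sided permutation test, p = 0.50, adjusted 0.933), which was 0.12 without WT heart 1 and 0.56 without KO heart 3 or WT heart 2. The Myl4 to Myl3 ratio was 24.7%, 31.0% and 15.3% in KO and 10.7%, 23.0% and 26.9% in WT hearts, with a log2 difference of 0.27 (exact two-sided permutation test, p = 0.60, adjusted 0.933) that turned to -0.13 without WT heart 1. Both ratios were lowest in WT heart 1 and highest in KO heart 2. Myl2 and Myl3, the denominators, are among the dense genes described above. The counting error of Myl7 enters the Myl7 to Myl2 ratio, so its variation cannot be read as a difference between hearts alone.

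A heart sample can hold atrial and ventricular muscle, so the atrial light chains were set beside 8 other atrial markers, Nppa, Sln, Mybphl, Bmp10, Gja5, Dkk3, Stard10 and Kcnj3. Their summed values were 1419, 1502 and 1319 in KO and 1444, 1421 and 1567 in WT hearts. Over the 6 hearts log2 Myl4 and the log2 sum had a Pearson r of 0.612 (exact permutation p = 0.219, adjusted over 2 relations 0.439) and a Spearman rho of 0.60 (exact permutation p = 0.242, adjusted 0.483). For Myl7 the r was 0.228 (exact permutation p = 0.683, adjusted 0.683) and rho 0.20 (exact permutation p = 0.714, adjusted 0.714). Without the 2 hearts farthest from the median sum, KO heart 3 and WT heart 3, r was 0.37 for Myl4 and 0.39 for Myl7, and on deviations from the group means it was 0.74 and 0.45. Neither relation was established with 6 hearts. Kcnj3 (802 to 882) and Nppa (286 to 337) made up most of the sum. The markers did not share a single order over the hearts. Sln was at 29, 28 and 13 in KO and at 11, 16 and 25 in WT hearts, and Mybphl at 22, 31 and 12 in KO and at 18, 25 and 27 in WT hearts. Kcnj3 ran opposite to the light chains, highest in WT heart 1 at 882 and lowest in KO heart 2 at 802. Stard10 was highest in WT heart 3 at 92, with 91 in KO heart 2. Bmp10 was at 0, 8 and 2 in KO and at 1, 0 and 56 in WT hearts, high in WT heart 3 only.

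**Figure D5:**
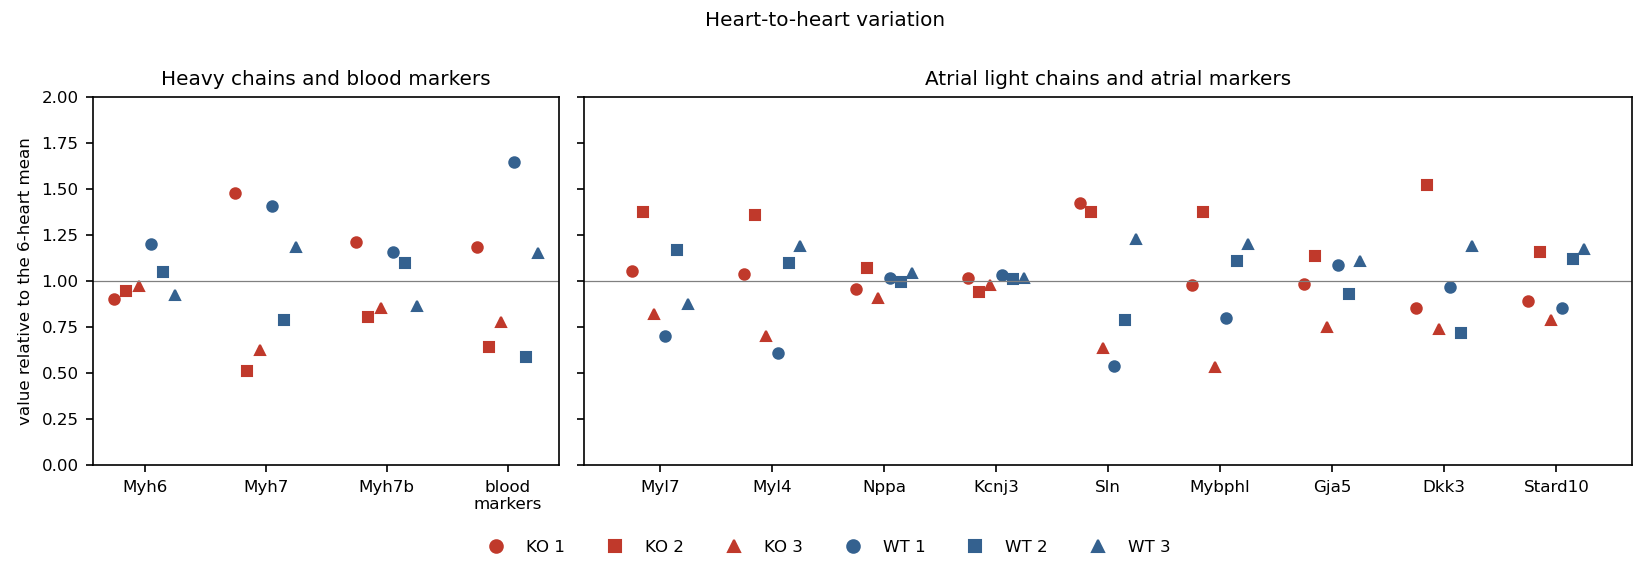
Values relative to the 6-heart mean of each gene (vertical axis) in KO (red) and WT (blue) hearts, with replicate numbers as symbols. Left, KO heart 1, WT heart 1 and WT heart 3 are the 3 highest for Myh7 and for the summed blood markers, while Myh6 is narrow. Right, KO heart 2 is highest for Myl7, Myl4, Nppa, Mybphl, Gja5 and Dkk3, but lowest for Kcnj3, and Sln is highest in KO heart 1 and Stard10 in WT heart 3. Bmp10, at 0 to 56, is left out of the plot because its scale differs.

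Markers of other cells were compared in the same way. The summed blood markers Hba-a1, Hba-a2, Hbb-bs, Hbb-bt and Alas2 were 304, 164 and 200 in KO and 423, 151 and 296 in WT hearts. The 3 hearts with the highest Myh7, KO heart 1, WT heart 1 and WT heart 3, were also the 3 highest in this sum, with Hbb-bs at 66, 91 and 73 and at 38 to 51 in the rest. Over the 6 hearts Myh7 had a Pearson r of 0.88 with Hbb-bs and of 0.82 with Alas2. It also had an r of 0.71 with the skeletal actin gene Acta1 and of -0.03 with Nppa. These values are a description, and the part of blood content in the spread of Myh7 was not tested. Of the 9 skeletal muscle markers 5 had rows, and their sum was 14 to 20 in KO and 13 to 19 in WT hearts. Smooth muscle markers summed to 645 to 735 in KO and to 693 to 717 in WT hearts, and fibroblast markers to 2244 to 2542 and to 2381 to 2555. Endothelial markers summed to 3357 to 3892 in KO and to 3373 to 3847 in WT hearts. None of the skeletal muscle markers was high enough to be tested. No tested gene of the other lists in this paragraph passed an adjusted p of 0.05 (limma), nor did any have an unadjusted p below 0.05.

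The 6 ventricular cardiomyocyte markers all had a negative fitted difference, as had Myh6, Myl2, Myl3 and Mybpc3. Only Ryr2 was separated between the groups, at 9276 to 9861 in KO and 9991 to 11387 in WT hearts, against a background of 9.07%. The groups overlapped for Actc1, Tnni3, Pln, Irx4 and Tnnt2, the last at 1187 to 1264 in KO and 1182 to 1552 in WT hearts. None of the 6 markers passed the adjusted threshold (limma). Ryr2, the calcium-release channel (log2 fold change -0.15), Pln, the inhibitor of the calcium pump (-0.15), and Tnnt2, cardiac troponin T (-0.16), had an unadjusted p below 0.05 (limma). The background was 2.80% of all genes tested in that direction. The median of the 6 was -0.16, and -0.05 without KO heart 1 and WT heart 1.

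Most other sarcomeric myosin and thick filament genes also had negative differences. Of the 21 genes listed, 16 were in the table and 9 were tested, with 1 higher, 8 lower and a median log2 fold change of -0.14, which was -0.13 without KO heart 1 and WT heart 1. None passed the adjusted threshold (limma), while Ttn, the giant scaffold of the sarcomere (-0.17), and Myom1, which links thick filaments at the M-band (-0.14), had an unadjusted p below 0.05. The background in that direction was 2.80% of all genes tested. The skeletal and embryonic heavy chains Myh2, Myh3 and Myh8 had values between 0 and 4 in every heart. At the value of 2.61 to 3.77 that 3 reads represent, these are at or near the limit of counting.

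Among the 10 non-muscle and smooth muscle myosin genes 9 were tested, with 4 higher, 5 lower, none past the adjusted threshold and none with an unadjusted p below 0.05 (limma). Myh9, a non-muscle heavy chain, had a log2 fold change of 0.06 and Myh14 one of 0.08, and the median of the list was -0.02. All 10 genes of myosin folding and light chain phosphorylation were tested, with 3 higher, 7 lower, a median of -0.06 and none past the adjusted threshold. Of these, Hsp90aa1 and Hsp90ab1, chaperones that take part in folding the myosin head, were lower in KO hearts at an unadjusted p below 0.05. In that direction the background was 2.80% of all genes tested. Hsp90aa1 was at 315, 277 and 299 in KO and at 343, 327 and 422 in WT, which gave a log2 fold change of -0.29 ± 0.09 (SE, limma, adjusted p = 0.762). Hsp90ab1 had a log2 fold change of -0.16 ± 0.06 (SE, limma, adjusted p = 0.840).

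The list of regulators of the alpha to beta choice held thyroid hormone receptors and muscle transcription factors. Of 18 genes listed, 17 were tested, with 7 higher, 10 lower, a median of -0.03, none past the adjusted threshold and none with an unadjusted p below 0.05 (limma). Tead1, the most abundant, was at 1583, 1677 and 1699 in KO and at 1704, 1838 and 1749 in WT, which gave a log2 fold change of -0.09 ± 0.05 (SE, limma, adjusted p = 0.879). Mef2a, a muscle transcription factor, had 0.03 in the same fit.

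The genes whose values over the 6 hearts were most like those of the variable members were found among 7062 tested genes with a mean of at least 100 (7063 for Myl7), as a description without a test. For Myh7 they were Cdc123 (Pearson r 0.984), Prkag1 (0.980) and Ids (0.980), all with a much smaller spread, such as 185, 152 and 158 in KO and 187, 166 and 173 in WT hearts for Cdc123. For Myh7b they were 3425401B19Rik (0.997), Afg3l2 (0.996) and Zmynd11 (0.987), and for Myl7 they were Tbc1d2b (0.980), Trmt1l (0.979) and Nod1 (0.972). Within the members, Myh7 and Myh7b had an r of 0.74, Myl4 and Myl7 of 0.85, and Myh7 and Myh6 of 0.18. Values of 1 heart share its library, and 6 points allow a high r for many genes. The values of Myl7 also carry the counting error given above.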

How the data were processed

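Total RNA of 3 Trdn-as KO and 3 WT mouse hearts was sequenced as stranded single-end 75-base reads, and groups and replicate numbers were taken from the sample titles. Per the labels and the study's methods, the authors trimmed reads (Trimmomatic 0.39), aligned them to GRCm38 (STAR 2.6.1d), removed PCR duplicates (Picard 2.21.1) and multi-mapping, ribosomal and mitochondrial reads, counted exonic reads by strand (featureCounts 1.6.5) and divided by size factors (DESeq2 1.18.1). The values the authors deposited are a score in this sense: normalised read counts rounded to whole numbers, 1 column per heart, with 0 columns unused.

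Size factors were inferred from the gaps that rounding leaves between values and multiplied back to give estimated reads (largest error in 10 simulated libraries 0.000801%). Genes with a mean of at least 10 were tested on log2(value + 1) with limma 3.58.1 (R 4.3.3), mean-variance trend, two-sided, without covariates, with Benjamini-Hochberg adjustment over 13753 genes and a threshold of 0.05. A fold change on this scale understates low genes. In simulated KO against WT data (13754 genes, 200 changed, 3 sets), 82.8% to 90.9% of 2-fold and 46.5% to 51.5% of 1.5-fold changes were recovered. The simulation gave all genes the same dispersion and left out duplicate removal. Its shares therefore do not apply to Myh7, Myl4 and Myl7 (residual SD 0.65, 0.50 and 0.36, median of all genes 0.14) or to the dense members. Ratios were compared by exact permutation tests. Transcript lengths came from GENCODE M21, upstream and miRNA sequences from RefSeq (GRCm38.p6).

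Members and gene lists were chosen with earlier results of these data known. Genes named are the 9 members, Trdn-as and Trdn, intronic and antisense RNAs of the myosin genes, list genes with an unadjusted p below 0.05 or among the 2 most abundant of their list, and the 3 genes most like Myh7, Myh7b and Myl7, while Myh2, Myh3, Myh8, Acta1 and other marker genes were named outside this rule, after their values were seen. Some genes that this rule names are not reported here. The labels do not say how the animals were related, and p-values refer to these 6 hearts only. In limma, the SE and p of a gene draw on its own spread and on that of genes of similar level. The weights were 4 residual and 15.4 prior degrees of freedom in the main fit. For genes that vary more than most, such as Myh7, the printed SE is therefore smaller than their own spread gives. Alternatives were other scalings, filters and pseudocounts, no variance trend, a density correction, a replicate block and leaving out each heart.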

Additional observations from a re-analysis of the deposited data

How the results depend on the processing

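All 9 members stayed above an adjusted p of 0.05 in limma under each alternative except 1: without KO heart 1, Myh7 passed. The number of members past it was therefore 0 to 1 when each heart was left out in turn. The number of all genes past it was 4 in the fit of all hearts, 2 with at least 10 in every sample, 1 without the variance trend and 2 to 32 when each heart was left out (32 without KO heart 1, 7 without WT heart 3). Members with an unadjusted p below 0.05 numbered 3, but 0 without the trend, 0 with the density correction and 0 to 6 with hearts left out (0 without KO heart 2 or WT heart 1, 6 without WT heart 3). Without both KO heart 1 and WT heart 1, an alternative chosen after seeing the data, 2 genes were called, the log2 fold change of Myl4 was -0.23, and the log2 ratio differences were -0.20 for Myh7b to Myh6 and -0.19 for Myl4 to Myl3. With hearts left out in turn, Myl4 ranged from -0.20 to 0.36, the Myh7 to Myh6 difference from -0.83 to -0.02, Myh7b to Myh6 from -0.18 to 0.14, Myl7 to Myl2 from 0.12 to 0.56 and Myl4 to Myl3 from -0.13 to 0.55. The density correction gave 0.00 for Mylk3 and -0.09 for Myh7b to Myh6. Scaling to equal totals moved the split of genes with an unadjusted p below 0.05 from 405 higher and 385 lower to 555 and 268, and left the direction of each member as it was. The cause of these changes was not tested. Across all genes tested, deviations from the group means were not alike in hearts of the same replicate number (correlations 0.05, -0.07 and -0.03). For Myh7, hearts 1, 3 and 2 ran from high to low in both groups. With the replicate block 4 genes and 0 members were called. Myh7 was then at -0.49 ± 0.12 (SE, limma, unadjusted p = 0.00134, adjusted p = 0.485), beside an unadjusted p of 0.0613 without the block. The relation to atrial markers by the mean of log2 values, chosen after seeing the data, gave an r of 0.670 for Myl4 (exact permutation p = 0.0833, adjusted 0.167) and 0.274 for Myl7 (exact permutation p = 0.561, adjusted 0.561). Myl7 had the fewest reads (values of 24 to 47), and Myh6, Myl2, Myl3 and Mybpc3 the most per base.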
